A study of Saccharomyces cerevisiae with 6 samples.

Results

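The stable noncoding RNAs of *Saccharomyces cerevisiae* described here are the spliceosomal snRNAs U1 (snR19), U2 (LSR1), U4 (snR14), U5 (long form snR7-L and short form snR7-S) and U6 (snR6), with the RNase MRP RNA (NME1), the RNase P RNA (RPR1), the signal recognition particle (SRP) RNA (SCR1) and the telomerase RNA (TLC1). They were chosen by name, and 8 of the 10 have a row among the 6277 genes of the count table. No row was matched to snR7-S or TLC1, which were not analysed here. All 10 were found as noncoding genes in the RefSeq R64 annotation.

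Ribosome-depleted total RNA was sequenced from 3 strains, with 2 libraries each. Every strain has the BY4741/4743 background, lacks chromosomal *RRP6* and *MTR4*, and carries *MTR4* on the plasmids pRS416 and pRS415. On a further plasmid, pRS413, the WT strain carries wild-type *RRP6*, the Rrp6 exo- strain carries *RRP6* with the D238N substitution, and the rrp6Δ strain carries no insert. WT therefore denotes a plasmid-borne gene in a deletion background. Cells came from individual clones, were grown at 30 °C in selective medium and were harvested in mid-log phase. The study describes its sequencing data as coming from 2 independent biological replicates. The labels do not say which library came from which clone, so p-values here weigh differences against the spread between these libraries. The comparisons ask how the level of each RNA differs without Rrp6 and without its exoribonuclease activity.

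Spliceosomal snRNAs pair with the pre-mRNA and with each other to build the active site that removes introns. U1 recognises the 5′ splice site, U2 the branch point, and U6 takes over the 5′ splice site after it is released from U4, while U5 holds the exons. U1, U2, U4 and U5 are made by RNA polymerase II and bind a ring of Sm proteins. U6 is made by RNA polymerase III, ends in a run of uridines and binds the Lsm ring and the La protein. RNase P matures the 5′ ends of tRNAs, RNase MRP shares most of its proteins and acts in rRNA processing, and SRP RNA is the scaffold of the particle that targets secreted proteins to the endoplasmic reticulum. Rrp6 is a 3′ to 5′ exoribonuclease of the nuclear exosome, which trims the 3′ ends of several stable RNAs in yeast.

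The sequences below show the features by which these RNAs are recognised and, for U5, the stretch that bears on how its reads were counted. They are from RefSeq, build R64, and run 5′ to 3′. In U6 the ACAGAGA box that pairs with the 5′ splice site is in capitals (chrXII:366235-366346, plus strand). In U4 the capitals mark the Sm site AUUUUUG (chrV:167427-167586, minus strand). In the first 80 bases of U1 they mark ACUUACCU, which pairs with the 5′ splice site (chrXIV:230593-230672, minus strand). In the first 80 bases of U2 they mark GUAGUA, which pairs with the branch point (chrII:681783-681862, minus strand). In snR7-L they mark the 35 bases beyond the end of snR7-S (chrVII:939459-939672, minus strand). In the last 80 bases of SCR1 they mark the closing run of 5 uridines (chrV:442429-442508, plus strand).
snR6: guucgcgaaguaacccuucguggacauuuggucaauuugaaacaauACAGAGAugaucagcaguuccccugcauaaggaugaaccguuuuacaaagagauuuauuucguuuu
snR14: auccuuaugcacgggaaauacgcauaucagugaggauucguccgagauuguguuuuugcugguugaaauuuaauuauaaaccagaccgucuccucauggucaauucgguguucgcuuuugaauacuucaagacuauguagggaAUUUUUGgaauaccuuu
snR19: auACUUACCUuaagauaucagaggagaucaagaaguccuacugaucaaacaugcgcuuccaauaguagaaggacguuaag
LSR1: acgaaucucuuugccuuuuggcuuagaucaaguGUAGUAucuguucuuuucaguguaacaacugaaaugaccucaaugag
snR7-L: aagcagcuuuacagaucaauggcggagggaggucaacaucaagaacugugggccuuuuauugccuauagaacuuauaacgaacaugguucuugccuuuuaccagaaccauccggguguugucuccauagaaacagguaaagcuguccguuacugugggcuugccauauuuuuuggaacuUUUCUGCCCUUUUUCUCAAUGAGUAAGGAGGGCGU
SCR1: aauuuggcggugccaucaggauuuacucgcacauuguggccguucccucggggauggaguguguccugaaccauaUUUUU

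Each motif was searched on the RNA strand only, over all 456 noncoding genes of the annotation. ACAGAGA occurred in 11 of them (2.41%), of which snR6 and TLC1 belong to the RNAs described here. ACUUACCU occurred in 2 (0.439%), GUAGUA in 14 (3.07%) and AUUUUUG in 28 (6.14%). In the annotated sequence of snR6 the box begins at base 47 of 112. The first 179 bases of snR7-L are the whole of snR7-S, and the 35 bases particular to the long form are shorter than the 50-base reads. How reads falling on both forms were counted is not given in the sources used here, so the snR7-L value cannot be read as the long form alone. No other member overlaps a gene of the RefSeq annotation. Overlap with the 459 listed genes that have no match there could not be checked.

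The libraries held 34188755 to 39501874 reads counted on genes. *RRP6* itself was read at 19503 and 21626 scaled counts in the WT libraries, at 18538 and 21173 in those of Rrp6 exo-, and at 4.17 and 8.33 in those of rrp6Δ (replicates 1 and 2, the order used throughout). The labelled deletion is therefore seen in both rrp6Δ libraries. A scaled count is the number of reads divided by the size factor of the library. The 8 RNAs together took 7.93% to 9.91% of the reads of a library. LSR1 and SCR1 made up 90.6% to 92.0% of these.

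The read level of the RNAs, as scaled counts per kb of annotated length, fell into a high and a low set. SCR1 was highest, at 3035593 ± 625967 per kb (SD, n = 6 libraries), above every other listed gene with a known length. LSR1 followed at 1136644 ± 114515 per kb, then RPR1 at 273577 ± 57175 and snR19 at 215015 ± 10932. NME1, at 165811 ± 19381 per kb, was the lowest of the high set and still above 99.6% of the 5818 listed genes with a length. The next RNA, snR6, lay 48.6-fold lower at 3412 ± 1622 per kb. Close to it came snR7-L at 3346 ± 758, and snR14 had the lowest mean at 2125 ± 182 per kb. The length used for snR7-L includes the 179 bases shared with snR7-S. How reads on those bases were counted is not given, so the level and place of snR7-L are uncertain. RPR1 and snR19 overlapped over the 6 libraries, as did snR6 and snR7-L, so their order is not resolved. All other neighbours in this order were separate in every library. RNAs further apart could still cross, as snR6 was at 1727 per kb in WT replicate 2, below snR14 at 2209 there. The low set holds the 3 shortest RNAs, of 112 to 214 bases, and the high set the 5 of 340 bases or more. The part of length in that split was not tested. How well RNAs of different length enter these libraries was not measured. The split is therefore in reads and does not give amounts in the cell.

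**Figure D1:**
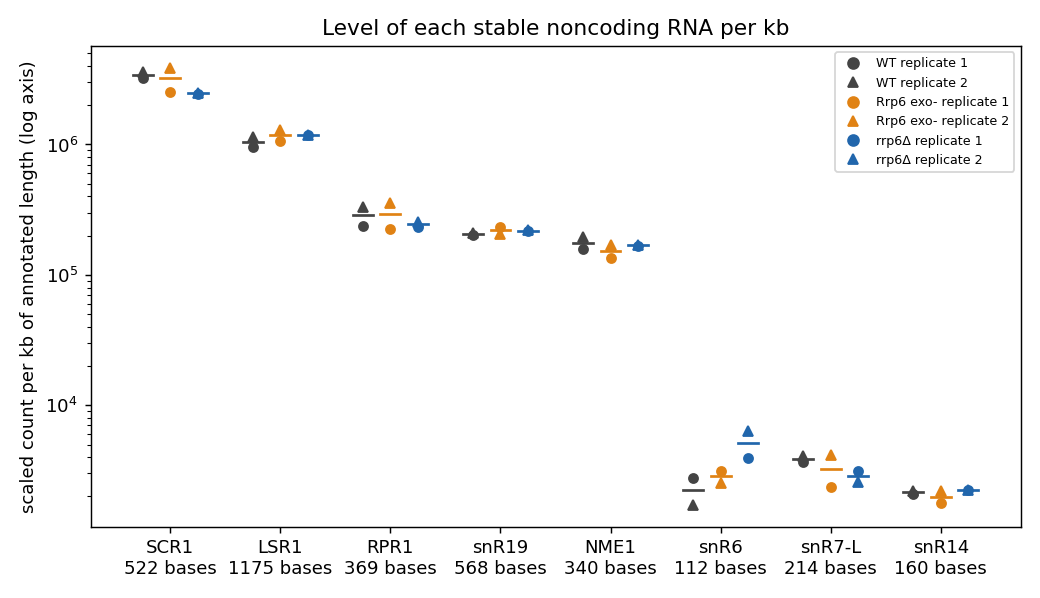
Scaled count per kb of annotated length (log axis) of each of the 8 RNAs, with the length in bases under each name. Circles are replicate 1, triangles replicate 2, and lines are the mean of each strain. SCR1 at 3035593 and snR14 at 2125 per kb mark the ends of the order, with the gap of 48.6-fold between NME1 and snR6.

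U6 was the RNA that differed most between strains. snR6 was read at 307.4 and 193.4 scaled counts in the WT libraries, at 351.7 and 285.7 in those of Rrp6 exo-, and at 440.8 and 714.0 in those of rrp6Δ. Both rrp6Δ libraries lay above all 4 others, while the WT and Rrp6 exo- libraries overlapped. These values rest on 186 to 771 reads. The lowest library had an exact Poisson interval of 160 to 215 reads at the 95% level and the highest one of 718 to 827. Such intervals cover counting error only. On the log2 scale snR6 also had the largest residual SD of the RNAs described here, 0.41. That was above 93.4% of the 5475 genes with a mean scaled count of at least 100, whose median was 0.12. Against WT, snR6 was 2.30-fold higher in rrp6Δ (95% interval 1.32 to 3.99). On the log2 scale the change was 1.20 (SE 0.32), with a limma adjusted p of 0.18 by the Benjamini-Hochberg method over all genes. Adding the replicate number as a blocking term (the block) gave a limma adjusted p of 0.037, and DESeq2 without the block gave 0.015. By number, the ratio of rrp6Δ to WT was 1.43 for replicate 1 and 3.69 for replicate 2. Without WT replicate 2 the log2 change was 0.87, and without rrp6Δ replicate 2 it was 0.85. Between Rrp6 exo- and WT the log2 change of snR6 was 0.38 (SE 0.32, limma adjusted p = 0.61). The same RNA differed by 0.82 between the mutants, higher in rrp6Δ (SE 0.32, limma adjusted p = 0.88, and 0.24 with the block), so the mutants were not shown to differ.

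U4, the RNA that chaperones U6 into the spliceosome, passed the test in no comparison. snR14 was read at 336.9 and 353.5 scaled counts in the WT libraries, at 282.7 and 353.2 in those of Rrp6 exo-, and at 355.4 and 358.4 in those of rrp6Δ. The rrp6Δ libraries were above the others by a margin smaller than the spread within Rrp6 exo-. The log2 change between rrp6Δ and WT was 0.05, with a 95% interval of -0.35 to 0.45 (limma adjusted p = 0.93). Between Rrp6 exo- and WT it was -0.13 (limma adjusted p = 0.75). The reads per base on snR6 relative to snR14 in the same library were 1.30 and 0.78 for the WT libraries, 1.78 and 1.16 for those of Rrp6 exo-, and 1.77 and 2.85 for those of rrp6Δ. In this ratio rrp6Δ lay above WT and overlapped Rrp6 exo-.

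U1, U2 and U5 recognise the splice sites and branch point. snR19 had the smallest residual SD of the 8, 0.08 on the log2 scale, against a median of 0.12 over the 5475 genes with a mean scaled count of at least 100. It was read at 115516 and 119880 scaled counts in the WT libraries, at 132345 and 116586 in those of Rrp6 exo-, and at 123950 and 124495 in those of rrp6Δ. Its log2 change from WT was 0.08 in both rrp6Δ (95% interval -0.17 to 0.32) and Rrp6 exo- (-0.17 to 0.32), with limma adjusted p of 0.76 and 0.75. The interval holds changes of 0.89-fold to 1.25-fold.

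LSR1 was read at 1124784 and 1351835 scaled counts in the WT libraries, at 1253665 and 1523126 in those of Rrp6 exo-, and at 1378841 and 1381089 in those of rrp6Δ. Both rrp6Δ libraries exceeded both WT libraries, and those of Rrp6 exo- overlapped WT. The log2 change was 0.16 in each mutant (SE 0.18), at a limma adjusted p of 0.71 for rrp6Δ and 0.70 for Rrp6 exo-. snR7-L was read at 785.8 and 877.6 scaled counts in the WT libraries, at 509.0 and 891.3 in those of Rrp6 exo-, and at 676.3 and 556.5 in those of rrp6Δ. Both rrp6Δ libraries were below WT, while the Rrp6 exo- libraries lay on either side of it. The log2 change was -0.44 in rrp6Δ (SE 0.28, limma adjusted p = 0.49) and -0.30 in Rrp6 exo- (limma adjusted p = 0.64).

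Among the other RNAs, SCR1 had the largest difference. It was read at 1694280 and 1884122 scaled counts in the WT libraries, at 1328428 and 2022181 in those of Rrp6 exo-, and at 1273205 and 1305259 in those of rrp6Δ. The rrp6Δ libraries were the lowest of the 6, and the Rrp6 exo- libraries spanned the range of WT, differing 1.52-fold from each other. The log2 change between rrp6Δ and WT was -0.47 (SE 0.23, 95% interval -1.04 to 0.10, limma adjusted p = 0.37), and that between Rrp6 exo- and WT was -0.12 (limma adjusted p = 0.84). SCR1 was the most-read gene in the WT and Rrp6 exo- libraries, and LSR1 in both rrp6Δ libraries.

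RPR1 and NME1 are the catalytic RNAs of the related enzymes RNase P and RNase MRP. RPR1 was read at 88212 and 122789 scaled counts in the WT libraries, at 82451 and 132180 in those of Rrp6 exo-, and at 86129 and 93940 in those of rrp6Δ. Replicate 2 was the higher one in each strain, by 1.39-fold in WT, 1.60-fold in Rrp6 exo- and 1.09-fold in rrp6Δ. Its log2 change was -0.21 in rrp6Δ (SE 0.26, limma adjusted p = 0.75) and 0.00 in Rrp6 exo- (limma adjusted p = 0.996). NME1 was read at 53670 and 66112 scaled counts in the WT libraries, at 45868 and 57373 in those of Rrp6 exo-, and at 57108 and 58122 in those of rrp6Δ. The strains overlapped. Its log2 change was -0.05 in rrp6Δ (SE 0.15, limma adjusted p = 0.92) and -0.22 in Rrp6 exo- (limma adjusted p = 0.52).

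**Figure D2:**
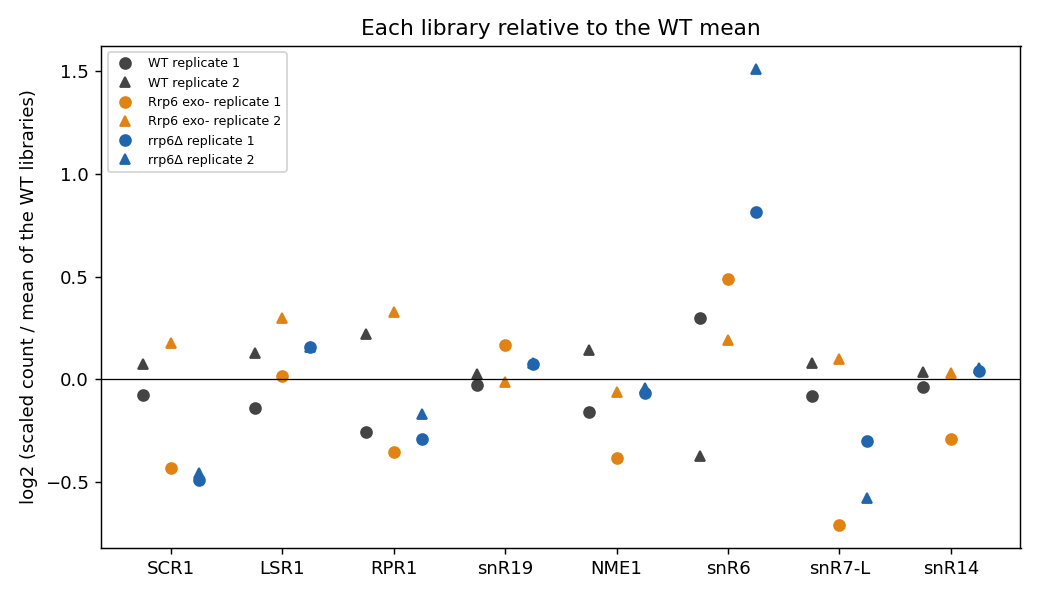
Log2 of the scaled count in each library relative to the mean of the WT libraries, for the 8 RNAs ordered by level per kb. For snR6 both rrp6Δ libraries, at 440.8 and 714.0 scaled counts, lie above the other 4, and for SCR1 both, at 1273205 and 1305259, lie below them.

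In counts, none of the 8 RNAs passed the limma threshold of 0.05 between rrp6Δ and WT, where 11 of 6277 genes did (0.175%). At an unadjusted p under 0.05 there was 1 of the 8 (12.5%), snR6, against 16.6% of all genes. With the block and with DESeq2, 1 of 8 passed, snR6, where 11.5% and 8.19% of all genes did. Without the block, edgeR called 0 of the 8, beside 0.175% of all genes. Between Rrp6 exo- and WT none passed, where 0.112% of all genes did, and 0 had an unadjusted p under 0.05 (17.0% of all genes). Limma with the block also called 0 (12.7% of all genes), as did edgeR without the block (0.0956%) and DESeq2 (8.45%). Between rrp6Δ and Rrp6 exo- none passed either, where 0.0159% of all genes did and 0.0319% with the block. At an unadjusted p under 0.05 there was 1 (12.5%), snR6, against 5.46% of all genes. The other tools called 0 of the 8, where edgeR without the block called 0.0159% of all genes and DESeq2 0.717%. The libraries of rrp6Δ and WT did not overlap for 6 of the 8 RNAs, 4 higher and 2 lower, against 50.0% of all genes. For Rrp6 exo- and WT this held for 0 of the 8 against 45.2% of all genes, and for the 2 mutants for 3 of 8 against 33.2%. The median log2 change of the 8 was 0.00 between rrp6Δ and WT and -0.06 between Rrp6 exo- and WT, beside 0.01 over all genes in each. Under rescaling to the same library total the all-gene medians moved to 0.16 and 0.12.

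**Figure D3:**
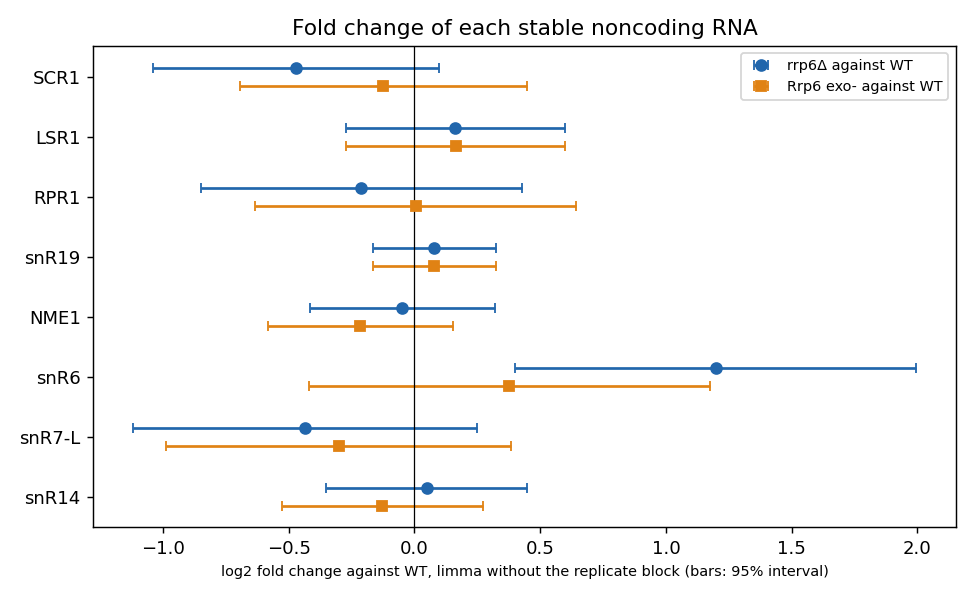
Log2 fold change of each RNA against WT from the limma fit without the replicate block, with 95% intervals, for rrp6Δ (circles) and Rrp6 exo- (squares). The interval of snR6 in rrp6Δ, 0.40 to 2.00, is the one that does not reach 0 before adjustment over all genes.

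Ratios within a library do not depend on the size factors. SCR1 relative to LSR1, in reads per base, was 3.39 and 3.14 for the WT libraries, 2.39 and 2.99 for those of Rrp6 exo-, and 2.08 and 2.13 for those of rrp6Δ. The strains did not overlap in this ratio, with WT highest and rrp6Δ lowest. RPR1 relative to NME1 was 1.51 and 1.71 for the WT libraries, 1.66 and 2.12 for those of Rrp6 exo-, and 1.39 and 1.49 for those of rrp6Δ. LSR1 relative to snR19 was 4.71 and 5.45 for the WT libraries, 4.58 and 6.32 for those of Rrp6 exo-, and 5.38 and 5.36 for those of rrp6Δ, and the strains overlapped. These ratios were picked with the levels known, and with 2 libraries against 2 a two-sided exact permutation test cannot go below p = 0.333, so none was tested.

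**Figure D4:**
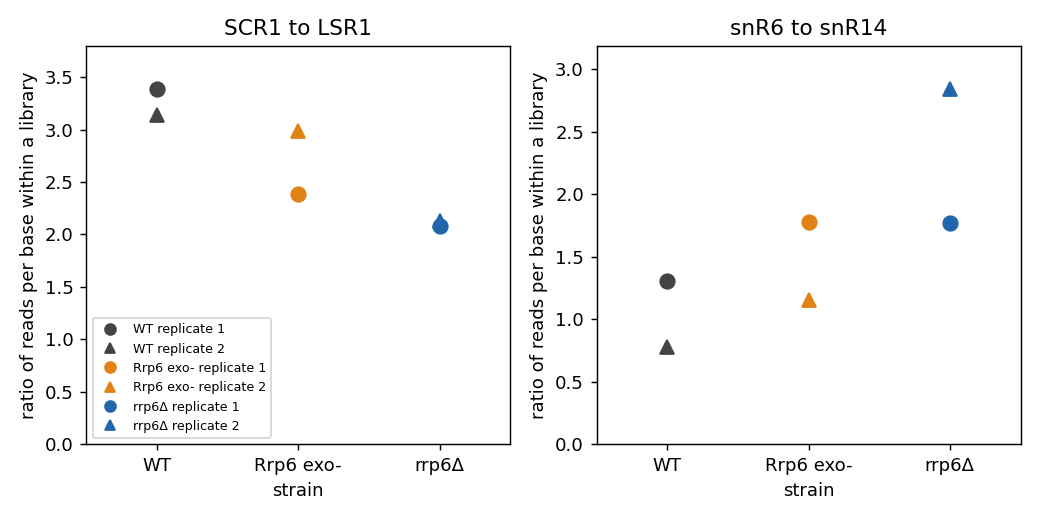
Ratio of reads per base within each library, SCR1 to LSR1 on the left and snR6 to snR14 on the right, by strain, with both axes starting at 0. The ratio of SCR1 to LSR1 is 3.14 to 3.39 in WT and 2.08 to 2.13 in rrp6Δ, and that of snR6 to snR14 is 0.78 to 1.30 in WT and 1.77 to 2.85 in rrp6Δ.

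Among the RNAs, 4 have a listed gene that begins downstream on the same strand within 2000 bases. Only the 5818 listed genes with a RefSeq position were searched. The largest difference was that of snR66, a C/D box snoRNA 163 bases past the annotated end of NME1. It was read at 153.2 and 185.1 scaled counts in the WT libraries, at 1235 and 950.5 in those of Rrp6 exo-, and at 1319 and 2358 in those of rrp6Δ, so both mutants lay well above WT. Its log2 change was 3.38 in rrp6Δ (SE 0.30, limma adjusted p = 0.034) and 2.68 in Rrp6 exo- (SE 0.30, limma adjusted p = 0.056, and 0.0015 with the block). For snR66 between rrp6Δ and WT, the limma adjusted p rose to between 0.092 and 0.14 in fits without either WT library, either Rrp6 exo- library or rrp6Δ replicate 2. The upstream NME1 had a log2 change of -0.05 in rrp6Δ, as given above. A fit of the 4 libraries compared gave snR66 a limma adjusted p of 0.10. *TOS2*, 466 bases past snR7-L, was read at 2082 and 2094 scaled counts in the WT libraries, at 2011 and 1734 in those of Rrp6 exo-, and at 1664 and 1433 in those of rrp6Δ. The log2 change of *TOS2* between rrp6Δ and WT was -0.44 (SE 0.12, limma adjusted p = 0.20, and 0.025 with the block). DESeq2 gave *TOS2* an adjusted p of 0.036. *OM14*, 637 bases past LSR1, had log2 changes of -0.04 in rrp6Δ and 0.16 in Rrp6 exo-. *TMA20*, 541 bases past snR14, had -0.14 and -0.25, and neither gene passed with or without the block. The counts cover annotated genes, so reads between an RNA and its neighbour were not measured.

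The proteins that bind or make these RNAs were taken as 11 lists with 103 genes. Without the block, limma called 0 of the 103 between rrp6Δ and WT, beside 0.175% of all genes. At an unadjusted p under 0.05 there were 9 (8.74%, against 16.6% of all genes). Unblocked edgeR also called 0 (0.175% of all genes), and DESeq2 called 6 (5.83%, against 8.19% of all genes). With the block 9 were higher, 8.74% of the 103 against 5.43% of all genes, and 1 was lower, 0.971% against 6.04%. Between Rrp6 exo- and WT limma without the block also called 0, beside 0.112% of all genes. At an unadjusted p under 0.05 there were 4 (3.88%, against 17.0% of all genes). Unblocked edgeR called 0 (0.0956% of all genes), and DESeq2 called 2 (1.94%, against 8.45% of all genes). With the block 3 were higher, 2.91% against 5.7%, and 0 lower, against 7.04%. Between rrp6Δ and Rrp6 exo- 0 were called by limma without the block (0.0159% of all genes) or with it (0.0319%). Unblocked edgeR (0.0159%) and DESeq2 (0.717%) also called 0. At an unadjusted p under 0.05 there were 5 (4.85%, against 5.46% of all genes). The median log2 change of the 103 was 0.13 in rrp6Δ and 0.05 in Rrp6 exo-, beside 0.01 over all genes in each. The adjusted p-values in the next paragraphs are from limma with the block.

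Among the spliceosomal proteins, 1 of 10 of U1, 1 of 11 of U2 and 1 of 9 of the U4/U6 complex and tri-snRNP passed with the block in rrp6Δ. Of the U5 proteins 0 of 8 passed. In that fit 11.5% of all genes passed. *PRP42*, a U1 protein, was read at 1838 and 1640 scaled counts in the WT libraries and 2307 and 2351 in rrp6Δ, a log2 change of 0.42 (SE 0.09, limma adjusted p = 0.026). *RDS3*, of the U2 complex that holds the branch point, changed by 0.56 (limma adjusted p = 0.041). *SNU13*, which binds U4 and also C/D box snoRNAs, was the gene that fell, by 0.30 on the log2 scale (limma adjusted p = 0.034), from 4655 and 4979 scaled counts in WT to 3756 and 4066. In Rrp6 exo- the U5 proteins *BRR2*, the helicase that unwinds U4 from U6, and *SNU114*, a GTPase, rose by 0.31 and 0.29 (limma adjusted p = 0.026 and 0.033). These were 2 of the 8 U5 genes, and 0 of the U1, U2 and U4/U6 lists passed, where 12.7% of all genes did. None of the 7 Sm genes or of the 8 genes of the Lsm ring and La protein passed in either mutant, beside the same shares of all genes. Their largest differences between rrp6Δ and WT were -0.45 for *SMX3* (limma adjusted p = 0.15) and 0.36 for *LSM8*, the Lsm subunit of the nuclear ring (limma adjusted p = 0.12).

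Of the 11 RNase P and MRP genes, *POP4* and *POP6* were higher in rrp6Δ, with log2 changes of 0.56 and 0.43 (limma adjusted p = 0.015 and 0.033). *POP4* was read at 1017 and 878.6 scaled counts in the WT libraries and 1455 and 1327 in rrp6Δ. *POP1*, the largest shared subunit, was higher in Rrp6 exo- by 0.36 (limma adjusted p = 0.016). Of the 8 SRP and SRP receptor genes *SRP68* passed in rrp6Δ, at 0.30 (limma adjusted p = 0.034). Of the 6 telomerase genes *EST1* passed, at 0.32 (limma adjusted p = 0.047). *RNT1*, the RNase III that cleaves downstream of snRNA genes, was 1 of the 3 genes for end and cap formation and passed at 0.38 (limma adjusted p = 0.036). Of the 22 genes of RNA polymerase III and its factors, *RPC11* and *RPC17* were higher, at 0.67 and 0.48 (limma adjusted p = 0.036 and 0.037). The other 20 did not pass. In rrp6Δ, DESeq2 called 0 of this list, 0 of the end and cap list and 0 of the U4/U6 and tri-snRNP list. It called 8.19% of all genes there. In Rrp6 exo- it called 0 of the RNase P and MRP list, beside 8.45% of all genes. List medians ran from 0.03 for the Sm genes to 0.20 for the U2 genes in rrp6Δ, beside 0.01 over all genes.

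**Figure D5:**
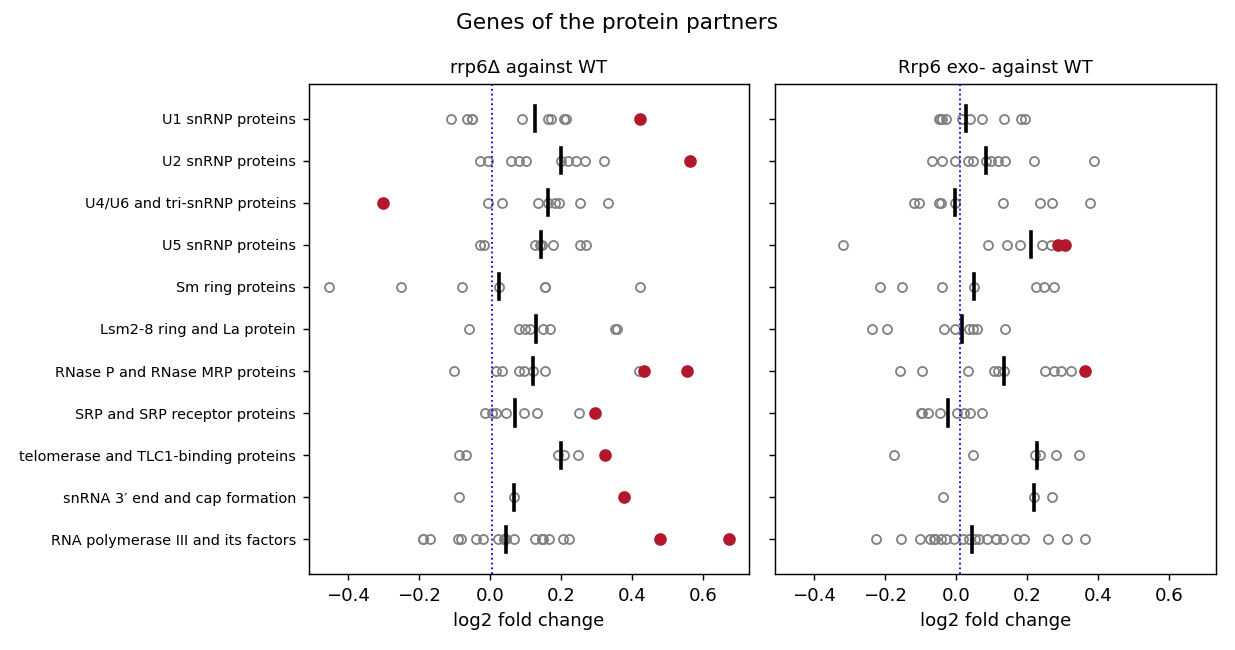
Log2 fold change against WT of the 103 genes of the protein partners, by list, for rrp6Δ on the left and Rrp6 exo- on the right. Each circle is a gene, filled red if its adjusted p was under 0.05 in the limma fit with the replicate block (10 on the left, 3 on the right), black bars are list medians, and the dotted line is the median of all genes, 0.01.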

How the data were processed

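Per the labels and the methods of the study, the authors depleted ribosomal RNA, prepared stranded libraries with 50-base paired reads, aligned them in 2 passes with STAR to sacCer3, processed the alignments with Picard (version 1.124), counted reads per gene with HTSeq (version 0.5.3) and scaled the counts with DESeq. The deposited values are this signal, counts divided by a size factor per library. All values (100.0%, within 0.01 read) came out as whole reads, which were used for edgeR and DESeq2. Size factors ran from 0.96 to 1.08. The strand and overlap settings of the counting are not given in the sources used here.

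Here limma (version 3.58.1, R 4.3.3) was run on log2(scaled count + 1) over all 6277 genes, all with a summed scaled count of at least 10, with strain as the only term, a mean-variance trend and all 6 libraries. P-values are two-sided and Benjamini-Hochberg adjusted over all genes, with a threshold of 0.05. Fold changes are on that scale. A fit with a blocking term for the replicate number (the block), edgeR (version 4.0.16, quasi-likelihood) and DESeq2 (version 1.42.0) were alternatives. The fits were also run on simulated counts. Those counts were drawn without a replicate effect, so they cannot decide between fits with and without the block. The difference between replicates 2 and 1 correlated between strains over 5985 genes with Pearson r of 0.65 (WT and Rrp6 exo-), 0.73 (WT and rrp6Δ) and 0.59 (the mutants), and same-numbered libraries share a letter in their library names. Genes are not independent, and the labels do not say what the number marks. The numbers were read as pairing the libraries, and blocked values stand beside a result where they change its call. Replicates differed beyond counting noise, with chi-square per degree of freedom of 77.6 to 117. The methods of the study report RNA integrity numbers that varied between samples, without a value for each library. Their part in these differences was not tested.

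The RNAs, gene lists and tests were chosen with earlier results of these data known. Genes named are *RRP6*, the RNAs, the next gene downstream on the same strand within 2000 bases, and, in each list, genes past the threshold against WT with or without the block (up to 4), or otherwise the gene of largest change between rrp6Δ and WT. 5818 of 6277 genes matched RefSeq R64, which gave lengths, positions and sequences. sacCer3 is the R64 assembly, so its coordinates apply.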

Additional observations from a re-analysis of the deposited data

How the results depend on the processing

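Adding the replicate block to the limma fit moved the genes called to 720 between rrp6Δ and WT, 800 between Rrp6 exo- and WT and 2 between the mutants, and those called among the 103 partner genes to 10 and 3 against WT. With edgeR and the replicate block these were 717, 797, 2, 11 and 3. With DESeq2 they were 504, 520, 45, 6 and 2. The number of the 8 RNAs called between rrp6Δ and WT was 1 under each of these. Rescaling to the same total gave 25 and 37 genes against WT, dropping the variance trend 17 and 20, and fitting the 4 libraries compared 1 and 3, with 2 between the mutants. The upper quartile gave 18 for Rrp6 exo-. Leaving out 1 library gave 1 to 3 genes for rrp6Δ, 0 to 3 for Rrp6 exo- and 1 to 2 between the mutants, and 6 to 8 RNAs kept their place in the order of levels.

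Of 432 alternative values for the 8 RNAs, 409 kept direction and call, 20 changed sign and 3 passed the threshold, all 3 for snR6 between rrp6Δ and WT. Its adjusted p ran from 0.015 to 0.62. Under the same total NME1 (rrp6Δ against WT) turned to 0.11, *OM14* to 0.11, *TMA20* to 0.013, *RRP6* (Rrp6 exo- against WT) to 0.058 and LSR1 between the mutants to 0.043. Under the upper quartile *OM14* turned to 0.0012 and LSR1 between the mutants to 0.021. snR19 between the mutants turned to -0.0039 in edgeR, -0.0023 in edgeR with the block and -0.0028 in DESeq2. With 1 library left out, signs changed over these log2 ranges. For rrp6Δ against WT, NME1 ran from -0.20 to 0.10, RPR1 from -0.45 to 0.028 and *OM14* from -0.69 to 0.60. For Rrp6 exo- against WT, snR14 ran from -0.29 to 0.033, snR19 from -0.013 to 0.17, snR7-L from -0.71 to 0.10, RPR1 from -0.34 to 0.34, SCR1 from -0.43 to 0.18, *RRP6* from -0.15 to 0.044 and *OM14* from -0.48 to 0.80. Between the mutants LSR1 ran from -0.14 to 0.14, snR19 from -0.091 to 0.092, snR7-L from -0.54 to 0.27 and RPR1 from -0.56 to 0.13. The cause of these changes was not tested. The fit with the block was not repeated with libraries left out. The planned share of snR7-L among U5 reads gave no value, since snR7-S has no row. With 2 libraries a strain, the 95% intervals of the 8 RNAs without the block reached 0.24 to 0.80 log2 units to either side. Smaller changes were not detectable in that fit. The intervals are not adjusted over all genes, so larger changes could miss the threshold too. The log2 change of 1.20 for snR6 between rrp6Δ and WT did so, at a limma adjusted p of 0.18.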
